A study of Homo sapiens with 18 samples.

Results

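Fatty acid metabolism was followed through genes of synthesis, oxidation and handling in liver cancer cells depleted of ATAD2 (ATPase family AAA domain containing 2, a chromatin-bound ATPase with a bromodomain). The members were a list of 35 genes, and 32 of them had at least 1 probe set annotated to that gene alone, out of 19775 genes measured on the array. They were represented by 10 genes of synthesis, 16 of oxidation and 6 of handling. Each gene stood for its probe set with the highest mean signal over all arrays, chosen among 78 probe sets in all, and 7 members had a single probe set. FADS1 and ELOVL1 had only probe sets annotated to several genes, and these members were not analysed here, nor was ACSL3. The study used 3 established lines of human hepatocellular carcinoma grown in RPMI: Hep3B, SNU449 and PLC, which is PLC/PRF/5. In each line 3 arrays came from cells transfected with ATAD2 siRNA by lipofection and 3 from cells given a non-targeting control siRNA, 18 arrays in all, so that control cells had also been transfected. The labels call the arrays of a group biological replicates. They give neither the time after transfection nor the number of different siRNAs. The labels also call the treated samples knockouts, whereas the design and protocol describe siRNA, and they are treated here as knockdowns.

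Fatty acids are built in the cytosol from citrate. ACLY splits citrate to acetyl-CoA, ACACA and ACACB carboxylate it to malonyl-CoA, FASN assembles palmitate, and the ELOVL elongases and the desaturases SCD and FADS2 lengthen and desaturate the product, with SREBF1 as a transcription factor of the pathway. Oxidation runs the other way: CPT1A and CPT2 carry long chains into mitochondria as carnitine esters for beta-oxidation, and peroxisomes shorten very long and branched chains with ACOX2, EHHADH and ACAA1 and pass the products on through the carnitine transferases CROT and CRAT. Malonyl-CoA inhibits CPT1A, so that synthesis and oxidation are coupled in the hepatocyte. The handling genes activate fatty acids (ACSL1, ACSL4, ACSL5), bind them in the cytosol (FABP1), take them up (CD36) or coat lipid droplets (PLIN2).

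All values below are log2 signals of 1 probe set after quantile normalization over the 18 arrays, and a change is the ATAD2 siRNA mean minus the control mean of the same line. ATAD2 itself fell in every line: by 3.80 on the log2 scale on Hep3B-labelled arrays, by 2.39 on SNU449-labelled arrays and by 2.62 on PLC arrays. The labels of a pair of lines ran against textbook markers. Hep3B is known as a line that secretes albumin and lacks RB1. RB1 read 4.27 to 4.75 on the 6 arrays labelled SNU449 and 9.15 to 9.51 on the 6 labelled Hep3B, and ALB (albumin) read 13.75 to 13.78 on arrays labelled SNU449 and 2.85 to 3.53 on those labelled Hep3B. Means of 6 hepatocyte markers and of 5 mesenchymal markers were 11.52 to 11.55 and 5.58 to 5.68 on SNU449-labelled arrays, and 4.71 to 4.90 and 11.06 to 11.24 on Hep3B-labelled arrays. The labels were kept, and each statement on Hep3B or SNU449 is about arrays labelled so. The means of 3 leukocyte, 3 endothelial and 3 adipocyte markers lay between 3.91 and 5.08 on all arrays. Under the Hep3B label the means of some marker lists also differed between ATAD2 siRNA and control arrays. The mesenchymal mean was 11.18 to 11.24 with ATAD2 siRNA and 11.06 to 11.11 in controls, the endothelial mean 4.80 to 4.87 with ATAD2 siRNA and 4.95 to 5.07 in controls, and the adipocyte mean 3.99 to 4.03 with ATAD2 siRNA and 4.05 to 4.11 in controls, none overlapping. The hepatocyte mean overlapped, at 4.72 to 4.84 with ATAD2 siRNA and 4.71 to 4.90 in controls. So did the leukocyte mean, at 4.80 to 5.08 with ATAD2 siRNA and 4.83 to 4.86 in controls. The endothelial marker CDH5 read 2.73 to 3.01 and the adipocyte marker ADIPOQ 2.55 to 2.80 on these arrays, near the bottom of the scale. These list means carry no test. Of the mesenchymal markers, SPARC rose by 0.83 (limma adjusted p = 1.32e-07). The others, VIM, COL1A2, AXL and ZEB1, each had a mean slightly below that of the controls, with overlapping values. The higher mesenchymal mean thus rested on SPARC. PECAM1, an endothelial marker, fell by 0.25 (limma adjusted p = 0.0278). The part of these shifts in the member results under the Hep3B label was not tested. On PLC arrays, replicates 1 and 3 with ATAD2 siRNA stood apart in RNA quality: the signal of the 5′ minus the 3′ control probe sets of actin and GAPDH was -1.15 and -1.09, against -0.45 on ATAD2 siRNA replicate 2 and -0.59 to -0.44 on the controls. An array level cannot tell fewer cells expressing a gene from less RNA per cell.

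ATAD2 depletion moved 11 of the 32 members in at least 1 line, 2 of them in more than 1 line and 0 in all 3 (limma, adjusted p under 0.05, over all 19775 genes). On Hep3B-labelled arrays 9 members rose and 1 fell, or 28.1% and 3.12% of the members, beside 8.68% and 7.74% of all genes called higher and lower. On SNU449-labelled arrays 2 members rose and 0 fell, or 6.25% of the members called higher. Of all genes 0.157% and 0.111% were called higher and lower. An unadjusted limma p under 0.05 was found there for 4 of 32 members and for 2036 of all 19775 genes. On PLC arrays 0 members rose and 1 fell, or 3.12% of the members called lower, beside 2.35% and 2.23% of all genes. The PLC share thus lay near the background. An unadjusted limma p under 0.05 was found on PLC arrays for 12 of 32 members and for 4156 of all 19775 genes. The share of members called lower on Hep3B-labelled arrays was below the share of all genes. Single arrays moved these counts. Without PLC ATAD2 siRNA replicate 2, 8 PLC members were called (3 higher and 5 lower), along with 3203 genes in all. That fit keeps ATAD2 siRNA replicates 1 and 3, with 5′ minus 3′ signals of -1.15 and -1.09, below all PLC controls. Knockdown and RNA quality cannot be told apart in it. Without Hep3B-labelled control replicate 3 or ATAD2 siRNA replicate 3, 6 members were called under that label. Without SNU449-labelled ATAD2 siRNA replicate 2, 1 member was called under that one. The change on each array is drawn for every member in the map by role and line.

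**Figure D1:**
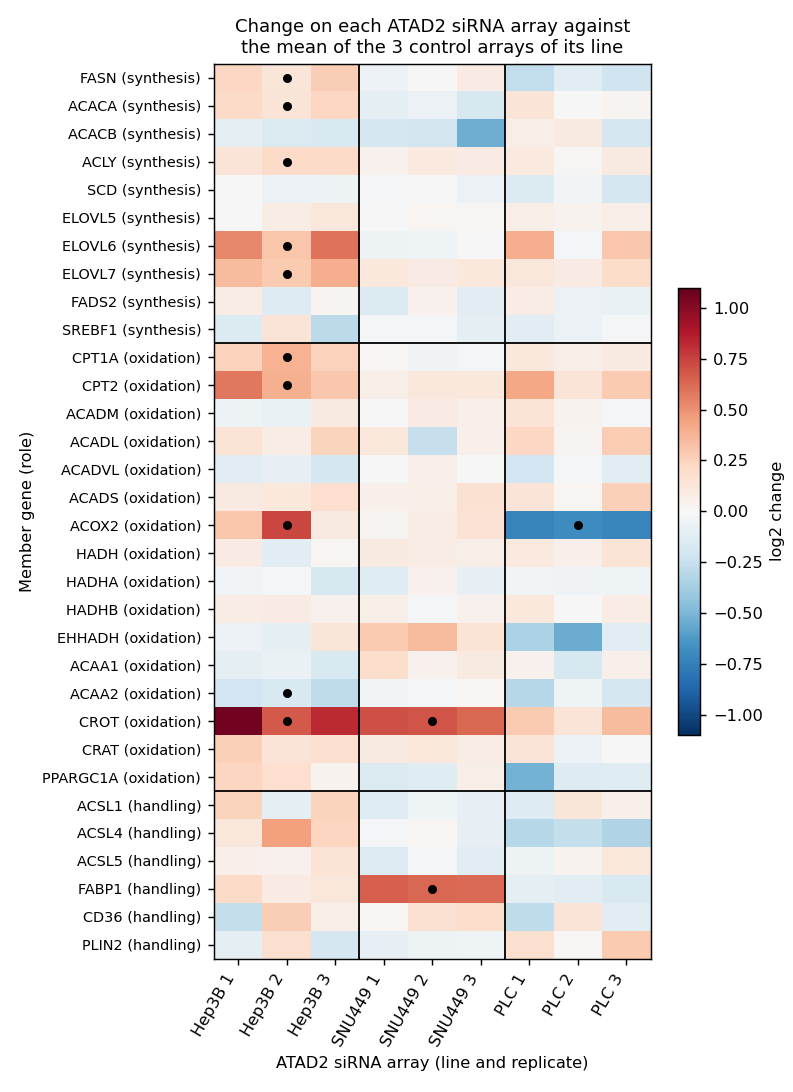
Log2 change of each of the 32 members (down the page, by role) on each of the 9 ATAD2 siRNA arrays (across, by line and replicate) against the mean of the 3 control arrays of that line. A dot in the middle column of a line marks an adjusted p under 0.05. CROT is high on all 6 arrays labelled Hep3B and SNU449, and ACOX2 is low on all 3 PLC arrays and above its control mean on all 3 Hep3B-labelled arrays.

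In the synthesis group 5 of 10 members rose and 0 fell on Hep3B-labelled arrays, and those that rose were ELOVL6, ELOVL7, FASN, ACACA and ACLY. ELOVL6, which elongates palmitate to stearate, read 9.35, 9.13 and 9.42 on ATAD2 siRNA arrays and 8.89, 8.72 and 8.86 on control arrays. The groups did not overlap, and the change was 0.48 with a standard error (SE) of 0.0926 (limma, adjusted p = 0.00156). All 3 ELOVL6 probe sets rose, by 0.48, 0.48 and 0.52. ELOVL7, an elongase of long chains with 1 probe set, read 9.06, 9.0 and 9.12 with ATAD2 siRNA and 8.72, 8.70 and 8.71 in controls. It rose by 0.35 (SE 0.0505, limma adjusted p = 0.000129), and its 3 knockdown values were again above all 3 controls. The other 3 changes were smaller. FASN, the palmitate synthase, read 8.79, 8.69 and 8.82 with ATAD2 siRNA and 8.52, 8.60 and 8.55 in controls, a rise of 0.21 (SE 0.0597, limma adjusted p = 0.0233). ACACA, the rate-limiting acetyl-CoA carboxylase, read 9.61, 9.54 and 9.63 with ATAD2 siRNA and 9.45, 9.37 and 9.37 in controls, a rise of 0.20 (SE 0.0591, limma adjusted p = 0.0319). ACLY read 11.42, 11.48 and 11.48 with ATAD2 siRNA and 11.22, 11.29 and 11.31 in controls, a rise of 0.19 (SE 0.0525, limma adjusted p = 0.0222). In all 3 genes the knockdown arrays lay above the controls, and each gene lost its call in 8 or 9 of 30 other settings, some of which left out 1 array of this line (adjusted p up to 0.278 for FASN). With every probe set tested by itself, no probe set of FASN, ACACA or ACLY passed. The limma adjusted p of the probe sets used here was then 0.0548, 0.072 and 0.0582. The other FASN probe set changed by -0.0045. The remaining members, ACACB, SCD, FADS2, SREBF1 and ELOVL5, had changes of -0.15 to 0.066, with adjusted p-values of at least 0.414. SREBF1 read 8.14, 8.43 and 8.0 with ATAD2 siRNA and 8.29, 8.27 and 8.30 in controls, so its knockdown arrays spread on both sides of the controls.

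The same genes of synthesis did not pass the test in the other lines. On SNU449-labelled arrays 0 of 10 were called by limma, with 1 at an unadjusted p under 0.05, beside 2036 of all 19775 genes. Changes lay between -0.31 for ACACB and 0.11 for ELOVL7. ACACB, the carboxylase isoform of the mitochondrial surface, read 7.31, 7.30 and 6.95 with ATAD2 siRNA and 7.61, 7.48 and 7.40 in controls. These groups did not overlap, though the limma adjusted p was 0.257. On PLC arrays 0 of 10 were called and 4 had an unadjusted p under 0.05, beside 4156 of all 19775 genes. Changes there lay between -0.20 for FASN and 0.23 for ELOVL6. Another ACACB probe set, with a low mean of 3.26, changed by -0.53 there (limma adjusted p = 0.00766 over all probe sets). FASN read 8.13, 8.27 and 8.18 with ATAD2 siRNA and 8.43, 8.43 and 8.33 in controls on PLC arrays, without overlap and with a limma adjusted p of 0.0618. The other FASN probe set changed by 0.21 there (limma adjusted p = 0.182 over all probe sets). SCD, the stearoyl-CoA desaturase, had adjusted p-values of 0.971 under the SNU449 label and 0.676 under the Hep3B label, and it read 12.13, 12.25 and 12.10 with ATAD2 siRNA and 12.30, 12.26 and 12.29 in controls on PLC arrays (limma adjusted p = 0.166).

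Among the 16 oxidation genes, 4 rose and 1 fell on Hep3B-labelled arrays, 1 rose on SNU449-labelled arrays and 1 fell on PLC arrays. CROT, the peroxisomal carnitine octanoyltransferase, changed most. On Hep3B-labelled arrays it read 8.08, 7.69 and 7.84 with ATAD2 siRNA and 7.15, 6.91 and 7.01 in controls. On SNU449-labelled arrays it read 8.43, 8.41 and 8.35 with ATAD2 siRNA and 7.62, 7.88 and 7.66 in controls. On PLC arrays it read 8.01, 7.85 and 8.06 with ATAD2 siRNA and 7.86, 7.58 and 7.72 in controls, so the PLC groups overlapped at their ends while those of the other lines did not. The change was 0.85 under the Hep3B label, or 1.80-fold (SE 0.102, limma adjusted p = 1.93e-05). It was 0.68 under the SNU449 label, or 1.60-fold (SE 0.102, limma adjusted p = 0.0109), and 0.26 on PLC arrays (limma adjusted p = 0.156). A second of the 3 CROT probe sets rose by 0.55 under the Hep3B label. Under the SNU449 label the mean of the probe sets gave 0.29 (limma adjusted p = 0.233), and without the second ATAD2 siRNA array the adjusted p was 0.0565.

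Both carnitine palmitoyltransferases rose on Hep3B-labelled arrays. CPT1A, the enzyme that controls entry of long chains into mitochondria, read 8.94, 9.06 and 8.94 with ATAD2 siRNA and 8.73, 8.74 and 8.57 in controls. CPT2, its partner on the inner membrane, read 7.89, 7.70 and 7.60 with ATAD2 siRNA and 7.32, 7.17 and 7.43 in controls. Neither gene's groups overlapped, and the changes were 0.30 for CPT1A (SE 0.0563, limma adjusted p = 0.00131) and 0.42 for CPT2 (SE 0.0853, limma adjusted p = 0.00215). A second of 4 CPT1A probe sets rose by 0.38, whereas the other CPT2 probe set changed by -0.021. Under the SNU449 label CPT1A changed by -0.011 and CPT2 by 0.10, and on PLC arrays by 0.097 and 0.29, none of them past the test. The other CPT2 probe set changed by -0.16 on PLC arrays (limma adjusted p = 0.146 over all probe sets). The calls of ELOVL6, ELOVL7, CPT1A, CPT2 and CROT under the Hep3B label were kept in all 30 other settings.

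ACOX2, a peroxisomal oxidase of branched chains and bile acid precursors, moved in opposite directions. It fell on PLC arrays, where it read 6.37, 6.41 and 6.38 with ATAD2 siRNA and 7.01, 7.07 and 7.22 in controls, a change of -0.71 (SE 0.113, limma adjusted p = 0.0037). It rose by 0.38 on Hep3B-labelled arrays (SE 0.113, limma adjusted p = 0.0294), where it read 5.06, 5.49 and 4.86 with ATAD2 siRNA and 4.70, 4.75 and 4.82 in controls. The PLC groups were far apart, but the Hep3B-labelled rise leaned on the second ATAD2 siRNA array, without which it was 0.20 (limma adjusted p = 0.113). That array also had a 5′ minus 3′ signal of -0.42, against -0.79 and -0.71 on the other Hep3B-labelled knockdown arrays; with this signal as a covariate the rise was 0.35 (limma adjusted p = 0.033). The PLC fall kept its call in all 30 other settings and was -0.58 with the 5′ minus 3′ signal as a covariate (limma adjusted p = 0.0378). The second PLC knockdown array, with a 5′ minus 3′ signal of -0.45, read 6.41. Beyond this covariate, the part of RNA quality in the PLC fall was not tested. On those PLC arrays the mean of the 6 hepatocyte markers was also lower, 8.03 to 8.22 with ATAD2 siRNA and 8.58 to 8.60 in controls, and ALB fell by 1.02. Its part in the ACOX2 result was not tested.

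ACAA2, a mitochondrial thiolase, was the oxidation gene that fell on Hep3B-labelled arrays. It read 10.26, 10.31 and 10.20 with ATAD2 siRNA and 10.48, 10.44 and 10.51 in controls, a change of -0.22 (SE 0.0604, limma adjusted p = 0.0187). The groups did not overlap, yet on the values as deposited the change was -0.17 (limma adjusted p = 0.132). Of the other oxidation members, the dehydrogenases ACADM, ACADL, ACADVL, ACADS, HADH, HADHA and HADHB and the enzymes EHHADH, ACAA1 and CRAT, together with the coactivator PPARGC1A, did not pass the test under any label. Under the Hep3B label their changes ran from -0.13 for ACADVL to 0.20 for CRAT. A second HADHA probe set changed by -0.35 on PLC arrays (limma adjusted p = 0.0488 over all probe sets). EHHADH, the peroxisomal bifunctional enzyme, read 7.16, 7.22 and 7.02 with ATAD2 siRNA and 6.97, 6.79 and 6.85 in controls under the SNU449 label, and 5.14, 4.95 and 5.37 with ATAD2 siRNA and 5.43, 5.37 and 5.66 in controls on PLC arrays. It was thus above its controls under the SNU449 label and mostly below them on PLC arrays, with limma adjusted p-values of 0.37 and 0.0787.

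The upstream sequence of CROT is shown because CROT was called in more than 1 line; ACOX2, the other member called in more than 1 line, had no entry in the promoter table. Those of CPT1A and ELOVL6 were added after their values were seen, because more than 1 probe set of each rose under the Hep3B label. Each is the 250 bases before the start in the RefSeq promoter table of GRCh38.p14, on the gene's strand, at chr7:87345414-87345663 (+) for CROT, chr11:68844278-68844527 (-) for CPT1A and chr4:110198616-110198865 (-) for ELOVL6. Capitals mark CCAAT or its reverse complement.
CROT: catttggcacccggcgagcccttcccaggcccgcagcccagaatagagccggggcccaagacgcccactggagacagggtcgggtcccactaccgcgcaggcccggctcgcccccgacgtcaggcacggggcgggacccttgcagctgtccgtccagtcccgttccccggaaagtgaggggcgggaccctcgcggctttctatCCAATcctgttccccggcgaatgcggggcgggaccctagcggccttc
CPT1A: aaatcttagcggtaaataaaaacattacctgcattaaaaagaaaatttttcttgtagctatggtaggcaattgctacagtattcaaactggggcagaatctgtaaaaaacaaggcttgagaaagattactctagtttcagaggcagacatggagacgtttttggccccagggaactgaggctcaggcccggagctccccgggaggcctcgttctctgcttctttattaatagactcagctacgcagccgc
ELOVL6: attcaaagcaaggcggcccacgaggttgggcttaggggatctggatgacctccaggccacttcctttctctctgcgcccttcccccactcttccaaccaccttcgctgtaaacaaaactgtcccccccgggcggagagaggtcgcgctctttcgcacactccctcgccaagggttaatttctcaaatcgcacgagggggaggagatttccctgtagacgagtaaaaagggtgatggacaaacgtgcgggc

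Promoters were in the table for 27 of the 32 members, in 45 windows that also cover 50 bases after the start; ACOX2, FASN, CRAT, ACAA1 and EHHADH had no entry. Each window was searched on both strands for 4 motifs. CCAAT, the letters of the NF-Y box, was in 26.7% of member windows and 34.6% of all 35116 windows. CACGTG, the E-box, was in 6.67% of member windows and 7.26% of all windows. TCACNCCAC, the letters of a sterol response element, was in 2.22% of member windows and 1.13% of all. A direct repeat of nuclear receptors (DR1), in 1 fixed spelling, was in 0% of member windows and 0.0228% of all. CROT held 2 CCAAT matches in its window, of which 1 lies in the printed part, whereas the windows of CPT1A and ELOVL6 held no match to any of the 4 motifs.

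In the handling group FABP1, the liver fatty acid binding protein, rose on SNU449-labelled arrays and no other handling gene passed the test in any line. FABP1 read 8.36, 8.33 and 8.32 with ATAD2 siRNA and 7.74, 7.69 and 7.68 in controls under this label. The knockdown arrays were clearly above the controls, with a change of 0.64, or 1.55-fold (SE 0.0611, limma adjusted p = 7.18e-05). Its second probe set changed by 0.038, and the mean of the 2 probe sets gave 0.34 (limma adjusted p = 0.0879). On PLC arrays FABP1 read 9.17, 9.15 and 9.11 with ATAD2 siRNA and 9.27, 9.18 and 9.37 in controls (limma adjusted p = 0.237). On Hep3B-labelled arrays it was near the bottom of the scale, at 3.45, 3.34 and 3.37 with ATAD2 siRNA and 3.16, 3.22 and 3.35 in controls. On these Hep3B-labelled arrays 0 of 6 handling genes were called by limma, with 2 at an unadjusted p under 0.05, beside 5409 of all 19775 genes. ACSL4, which activates arachidonate, read 9.90, 10.23 and 10.01 with ATAD2 siRNA and 9.57, 9.85 and 9.91 in controls there, and a second of its 3 probe sets rose by 0.67 (limma adjusted p = 0.0431 over all probe sets). On PLC arrays 0 of 6 were called and 2 had an unadjusted p under 0.05, beside 4156 of all 19775 genes. There ACSL4 read 9.17, 9.21 and 9.14 with ATAD2 siRNA and 9.59, 9.34 and 9.49 in controls (limma adjusted p = 0.123). ACSL1, ACSL5, CD36 and PLIN2 changed by -0.093 to 0.16 in the 3 lines.

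**Figure D2:**
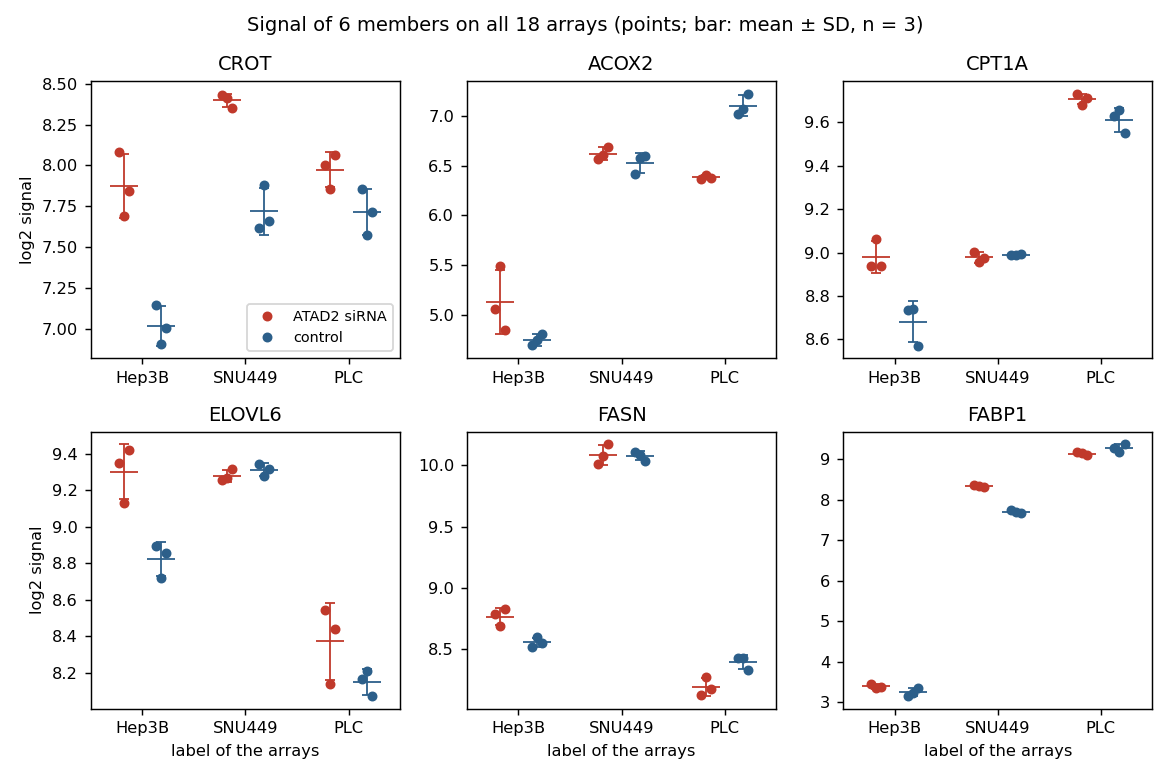
Log2 signal of CROT, ACOX2, CPT1A, ELOVL6, FASN and FABP1 on all 18 arrays, with ATAD2 siRNA left of control in each line. Points are arrays, and bars give the mean and standard deviation (SD, n = 3). CROT is higher with ATAD2 siRNA under the Hep3B and SNU449 labels, and FABP1 reads 8.32 to 8.36 with ATAD2 siRNA and 7.68 to 7.74 in controls under the SNU449 label.

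Set against each other, synthesis and oxidation did not part in a common direction. On Hep3B-labelled arrays the median change was 0.13 over the 10 synthesis genes and 0.10 over the 16 oxidation genes, beside -0.019 over all genes, and the handling median was 0.11. The median synthesis change minus the median oxidation change was 0.023, and the 3 arrays with ATAD2 siRNA, each taken by itself, gave 0.019, 0.051 and 0.067. On SNU449-labelled arrays the medians were -0.030 for synthesis and 0.066 for oxidation, with -0.016 over all genes. Their difference was -0.096, and the 3 arrays gave -0.097, -0.057 and -0.091, whereas the 3 control arrays gave 0.013, 0.0015 and -0.063. On PLC arrays the medians were 0.028 for synthesis and 0.042 for oxidation, beside 0.012 over all genes, and the difference was -0.014. The 3 PLC arrays gave -0.036, 0.000067 and -0.018. Single control arrays gave -0.039 to 0.019 under the Hep3B label and -0.040 to 0.052 on PLC arrays. Each control array was taken against the other controls of its line, and each ATAD2 siRNA array against all 3 control arrays. Knockdown and control arrays overlapped in all 3 lines. Under the Hep3B label the overlap was narrow, at 0.01918 on ATAD2 siRNA replicate 1 and 0.01933 on control replicate 2. These differences carry no test.

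**Figure D3:**
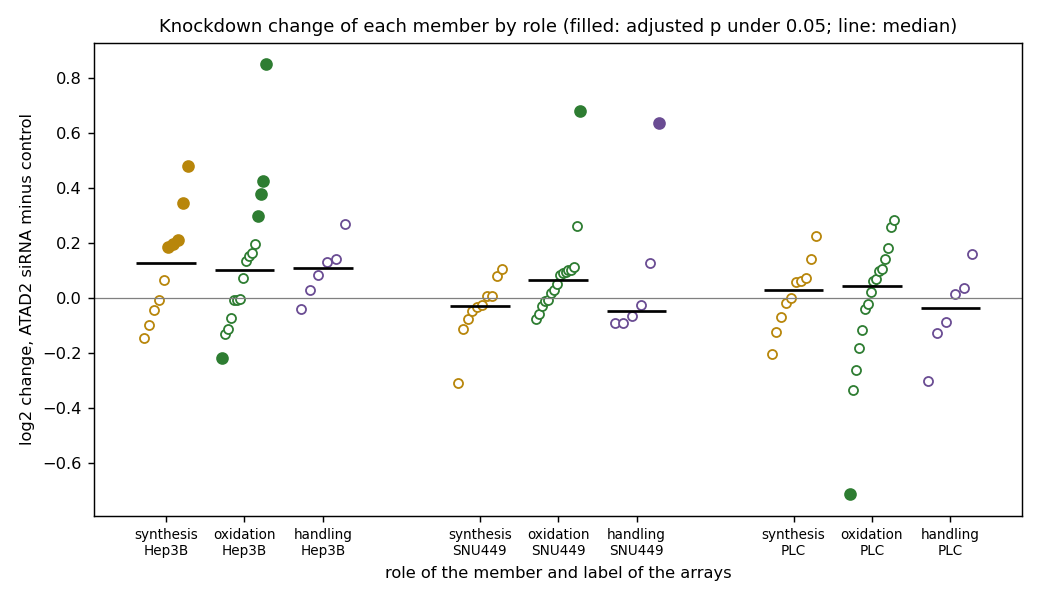
Log2 change (ATAD2 siRNA minus control) of each synthesis, oxidation and handling member by line, with the median as a black line and filled points for an adjusted p under 0.05. The medians of synthesis and oxidation are 0.13 and 0.10 under the Hep3B label, -0.030 and 0.066 under the SNU449 label, and 0.028 and 0.042 on PLC arrays.

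The knockdown change differed between lines for 6 members, or 18.8% of them, beside 9.19% of all genes (limma F test over the interaction contrasts, adjusted p under 0.05). They were FABP1 with an adjusted p of 0.0001, ACOX2 with 0.000933, FASN with 0.0145, CROT with 0.0328, EHHADH with 0.0442 and CPT1A with 0.0486. The count was 3 without any 1 of 5 arrays: Hep3B-labelled control replicate 2 or 3, Hep3B-labelled ATAD2 siRNA replicate 1, or PLC control replicate 1 or 3. Between PLC and Hep3B-labelled arrays 9.69% of all genes passed the test of the pair. The difference, PLC minus Hep3B, was -1.09 for ACOX2 (limma adjusted p = 0.000464), -0.59 for CROT (0.0161), -0.57 for ACSL4 (0.0294) and -0.41 for FASN (0.00607). The PLC arrays thus had the lower change in all 4 with the probe sets used here. The other FASN probe set, with a mean of 5.53, went the other way. It changed by -0.0045 under the Hep3B label and by 0.21 on PLC arrays (limma adjusted p = 0.182 over all probe sets). Between SNU449-labelled and Hep3B-labelled arrays 6.13% of all genes passed. The difference, SNU449 minus Hep3B, was 0.49 for FABP1 (limma adjusted p = 0.00222), -0.51 for ELOVL6 (0.028), -0.31 for CPT1A (0.0289) and -0.31 for ACACA (0.0358). Between SNU449-labelled and PLC arrays 0.202% of all genes passed, and FABP1 differed by 0.77 (limma adjusted p = 0.000594). CROT under the SNU449 and Hep3B labels differed by -0.17 (SE 0.144, limma adjusted p = 0.677), which does not show that the 2 changes are alike.

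Averaged over the 3 lines, 7 members rose and 1 fell, or 21.9% and 3.12% of the members, beside 6.80% and 6.21% of all genes called higher and lower. Those that rose were ACLY, ELOVL6, ELOVL7, CPT1A, CPT2, CROT and FABP1, and ACAA2 fell by 0.14. Of the 3 ACLY probe sets, the one used here changed by 0.074 on PLC arrays. The others changed by -0.41 and -0.18 there (limma adjusted p = 0.0511 and 0.156 over all probe sets), by 0.086 and -0.0086 under the SNU449 label, and by 0.27 and 0.084 under the Hep3B label. The mean change was 0.60 for CROT, 0.27 for CPT2, 0.22 for ELOVL6, 0.22 for FABP1 and 0.20 for ELOVL7. FABP1 changed by 0.64 under the SNU449 label, and by 0.14 and -0.13 under the Hep3B label and on PLC arrays, while CPT2 and ELOVL7 were above 0 in each line. The other CPT2 probe set changed by -0.021 under the Hep3B label, 0.020 under the SNU449 label and -0.16 on PLC arrays.

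Other genes of the same pathways, from lists of 21 synthesis, 26 oxidation and 36 handling genes, moved both ways on Hep3B-labelled arrays, where 8.68% of all genes were called higher and 7.74% lower. In synthesis 1 rose and 4 fell, or 4.76% and 19% of the list: ACSS2, which makes acetyl-CoA from acetate, rose by 0.41, while HACD3, a dehydratase of the elongation cycle, fell by 0.42 and ME1, a source of NADPH, fell by 0.37. In oxidation 6 rose and 2 fell, or 23.1% and 7.69%, among them PPARA, the receptor that drives oxidation genes (0.55), and PDK4, which inhibits pyruvate dehydrogenase (0.39), both higher, and ACADSB, a dehydrogenase of short branched chains, which fell by 0.44. In handling 4 rose and 2 fell, or 11.1% and 5.56%, near the share of all genes, with PPARG at 0.44, the bile acid and fatty acid ligase SLC27A5 at 0.35 and the phosphatidate phosphatase LPIN1 at 0.34. The limma adjusted p of the 9 named genes was at most 0.0126. On SNU449-labelled arrays limma called 0 in each of the 3 lists, beside 0.157% and 0.111% of all genes called higher and lower. In the lists 2, 4 and 7 genes had an unadjusted p under 0.05, beside 2036 of all 19775 genes. On PLC arrays 0 synthesis genes of the list rose and 1 fell, or 4.76%. In oxidation 1 rose and 2 fell, or 3.85% and 7.69%, and in handling 1 rose and 0 fell, or 2.78%. Of all genes 2.35% and 2.23% were called higher and lower there, and each list share rested on 1 or 2 genes. The elongase ELOVL2 fell by 0.21, the carnitine transporter SLC22A5 rose by 0.35 and the carnitine carrier SLC25A20 fell by 0.33. The electron carrier ETFA fell by 0.26 and the phosphatase LPIN3 rose by 0.21. Each of these 5 had a limma adjusted p of at most 0.038. SLC25A20 read 7.20, 7.62 and 7.23 with ATAD2 siRNA and 7.66, 7.69 and 7.68 in controls on PLC arrays. ETFA read 11.71, 11.95 and 11.68 with ATAD2 siRNA and 12.03, 12.03 and 12.07 in controls there. In both genes the lowest values were on ATAD2 siRNA replicates 1 and 3, the arrays with 5′ minus 3′ signals of -1.15 and -1.09, and the part of RNA quality in these calls was not tested.

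The control arrays of the lines were compared next. A member was called when limma's adjusted p was under 0.05 and the log2 difference at least 1. SNU449-labelled controls had 8 members higher and 4 lower than Hep3B-labelled controls, or 25% and 12.5% of the members, beside 9.23% and 10.5% of all genes. PLC controls had 4 higher and 4 lower than Hep3B-labelled controls, or 12.5% each way, beside 9.60% and 8.83% of all genes. SNU449-labelled controls had 9 higher and 6 lower than PLC controls, or 28.1% and 18.8% of the members, beside 8.60% and 10.5% of all genes. The scaling moved these splits. Centring each array on its median gave 8 higher and 5 lower, 16 and 3, and 2 and 16, and the values as deposited gave 8 and 3, 6 and 6, and 11 and 5. The median difference over all genes was -0.016, -0.025 and 0.014 in the same order, 0.15, -0.62 and 0.76 on the values as deposited, and -0.058, 0.63 and -0.70 after centring. The calls of 11 of 12 members between SNU449-labelled and Hep3B-labelled controls and of 7 of 8 between PLC and Hep3B-labelled controls were kept under all 3 other scalings, against 7 of 15 between SNU449-labelled and PLC controls.

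In the handling group 5 of 6 genes, ACSL1, ACSL4, FABP1, CD36 and PLIN2, were higher in SNU449-labelled than in Hep3B-labelled controls. FABP1 read 7.74, 7.69 and 7.68 in SNU449-labelled controls, 9.27, 9.18 and 9.37 in PLC controls and 3.16, 3.22 and 3.35 in Hep3B-labelled controls. ACSL1, the liver acyl-CoA synthetase, read 11.23, 11.04 and 11.08 on SNU449-labelled, 7.45, 7.51 and 7.43 on PLC and 7.29, 7.08 and 7.15 on Hep3B-labelled controls. CD36, the scavenger receptor, read 7.23, 7.02 and 7.21 on SNU449-labelled, 3.65, 4.2 and 3.78 on PLC and 3.68, 3.82 and 3.75 on Hep3B-labelled controls. SNU449-labelled arrays were high in ACSL1 and CD36, and PLC arrays were high in FABP1. CD36 values on PLC and Hep3B-labelled controls overlapped, and ACSL1 values there were close but did not. The lipid droplet protein PLIN2 was 1.68 higher in SNU449-labelled than in Hep3B-labelled controls and 2.30 higher than in PLC controls, though the second difference was 0.76 after centring. ACSL5 was 2.05 higher in PLC than in Hep3B-labelled controls, and 1.35 higher on the values as deposited.

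Of the synthesis genes, FASN was 1.52 higher in SNU449-labelled than in Hep3B-labelled controls under the main scaling and 1.35 after centring. FADS2, the delta-6 desaturase, differed by -1.36 between SNU449-labelled and Hep3B-labelled controls and by -2.12 between PLC and Hep3B-labelled controls, both calls being kept under each scaling; the PLC difference was -1.39 after centring. FASN, ACACA, ACLY and ELOVL6 were 1.04 to 1.68 higher in SNU449-labelled than in PLC controls, and this did not hold after centring, where they were 0.27, -0.43, -0.64 and -0.17. Oxidation genes differed in both directions. PPARGC1A, a coactivator of mitochondrial genes, read 5.31, 5.36 and 5.20 in SNU449-labelled, 6.88, 6.81 and 6.83 in PLC and 3.32, 3.26 and 3.21 in Hep3B-labelled controls. The last values were near the bottom of the scale. Its difference between SNU449-labelled and PLC controls was -1.55, but -0.62 on the values as deposited, and this call was not kept. ACOX2 was higher by 1.77 in SNU449-labelled and by 2.34 in PLC controls than in Hep3B-labelled controls. ACADL, the long-chain dehydrogenase, read 2.67, 2.67 and 2.84 in SNU449-labelled controls, near the bottom of the scale. It read 4.75, 4.87 and 4.80 in PLC and 6.19, 5.95 and 6.07 in Hep3B-labelled controls. ACADM differed by -1.35 and HADHA by -1.61 between SNU449-labelled and PLC controls, and by -2.92 and -3.07 after centring. The differences between lines stand beside the marker means given above, and their relation was not tested.

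**Figure D4:**
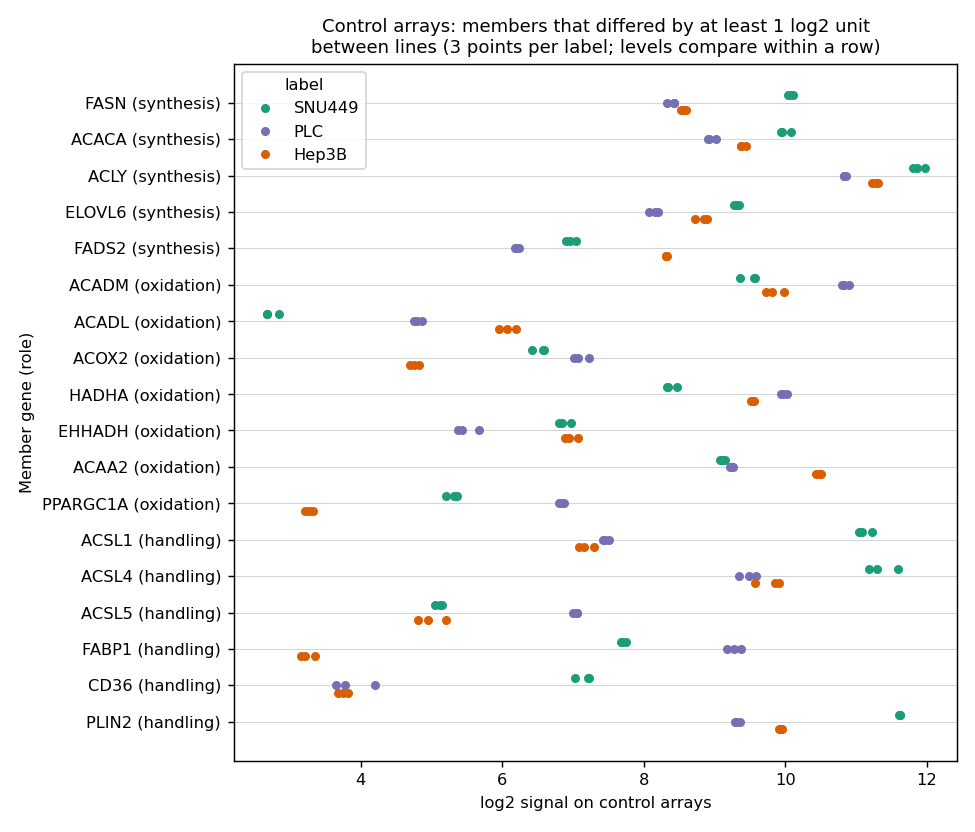
Log2 signal on the 3 control arrays of each label for the 18 members with a called difference between lines. Each point is an array; values compare within a gene only. FABP1 averages 7.70 on SNU449-labelled, 9.27 on PLC and 3.24 on Hep3B-labelled arrays, and ACSL1 and CD36 are high on SNU449-labelled arrays.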

How the data were processed

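RNA of 18 samples was measured on arrays of 54675 probe sets, and the authors deposited 1 table of log2 values (1.33 to 14.0). The log2 scale was judged from the range. How the background was corrected, the values normalized or centred is not stated in the sources used here. The submitters' processing notes name limma, without a version. Between sorted columns the gap was at most 0.155 among arrays of a line but 1.51 over all arrays, so the values were quantile normalized over all arrays.

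Gene names came from the platform annotation (1 gene for 41097, several for 1801, none for 11777). Symbols of 41043 were updated by gene ID from a RefSeq table (GRCh38.p14). The probe set with the highest mean stood for each of 19775 genes. With 12 residual degrees of freedom, lmFit and eBayes of limma 3.58.1, run in R 4.3.3, fitted 1 mean for each of 6 groups, which shared 1 spread per gene. P-values were two-sided and adjusted by Benjamini-Hochberg over all genes, with a threshold of 0.05. An exact test of 3 against 3 arrays cannot give a p under 0.1, so none is reported, and the number of arrays limits the precision. The procedure was checked on simulated data. The members, lists and tests were chosen with earlier results of these data known. All members are named. Other pathway genes are named up to 3 per list and line, by size of change among those called. The alternatives were 3 other scalings, 2 filters on dim genes, the mean of probe sets, each probe set by itself, an intensity trend, the 5′ minus 3′ signal as a covariate, a replicate block, each line by itself, a threshold of 0.01 and leaving out each array, 30 in all.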

Additional observations from a re-analysis of the deposited data

Results flagged for a closer look

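The knockdown change of 6 members differed between the lines in the limma F test over all genes. FABP1 had an adjusted p of 0.0001, with changes of 0.14 under the Hep3B label, 0.64 under the SNU449 label and -0.13 on PLC arrays. ACOX2 had an adjusted p of 0.000933, with changes of 0.38, 0.090 and -0.71 in the same order. FASN had an adjusted p of 0.0145 and changed by 0.21, 0.0082 and -0.20, whereas its other probe set changed by -0.0045, 0.20 and 0.21. CROT had an adjusted p of 0.0328 and changed by 0.85, 0.68 and 0.26. EHHADH had an adjusted p of 0.0442 and changed by -0.0087, 0.26 and -0.34, with no single line past the test. CPT1A had an adjusted p of 0.0486 and changed by 0.30, -0.011 and 0.097. With the 5′ minus 3′ signal as a covariate, 7 members passed this test, and the PLC changes were -0.15 for FABP1, -0.58 for ACOX2, -0.20 for FASN, 0.13 for CROT, -0.47 for EHHADH and 0.10 for CPT1A.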

How the results depend on the processing

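Over 30 other settings, the fall of ATAD2 kept its call in each line. The count of members called under the Hep3B label (10) became 6 with a replicate block, with every probe set by itself and with each line by itself, and 5 at a threshold of 0.01; leaving out single arrays gave 6 to 10, with 6 without control replicate 3 or ATAD2 siRNA replicate 3. Under the SNU449 label the 2 calls became 0 with the mean of all probe sets (2 members) and 1 at a threshold of 0.01, and 1 to 2 when single arrays were left out, with 1 without its second ATAD2 siRNA array. On PLC arrays the 1 call became 5 on the values as deposited, 5 after centring, 4 with quantile normalization within each line, 3 and 5 without the dimmest 30% and 50% of genes, 6 with an intensity trend, and 2 with a replicate block. Leaving out single arrays gave 1 to 8 there: 8 members (3 higher, 5 lower) and 3203 genes without the second ATAD2 siRNA array, and 2 without ATAD2 siRNA replicate 3. Leaving out the second Hep3B-labelled ATAD2 siRNA array also gave 2. In the fit that gave 8, knockdown and the lower 5′ minus 3′ signal of the remaining ATAD2 siRNA arrays on PLC cannot be told apart. Except for the 3203 genes, the counts in this section stand without the share of all genes under the same setting. They are therefore not read as results about the members.

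The 6 members with changes that differed between lines became 10 after centring, without the dimmest 30% or 50% and with an intensity trend, 3 with every probe set by itself, 2 at 0.01, and 3 to 8 when single arrays were left out. It was 3 without Hep3B-labelled control replicate 2 or 3, Hep3B-labelled ATAD2 siRNA replicate 1, or PLC control replicate 1 or 3.

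The 8 called between PLC and Hep3B-labelled controls became 19 after centring and 5 without the dimmest 50%, and 8 to 10 when arrays were left out. After centring, PLC minus Hep3B gave 1.08 for FASN, 1.01 for ACLY, 1.08 for ACSL4 and 0.11 for ACAA2, and SNU449 minus PLC gave -0.43 for ACACA, -0.64 for ACLY, -1.48 for SCD, -1.42 for ELOVL5, -0.17 for ELOVL6, -1.01 for ACAA1 and -1.15 for CROT, each of the opposite sign to the main value. Centring subtracts the median of each array. The medians as deposited were 4.14 to 4.21 on PLC arrays, 5.36 to 5.42 on Hep3B-labelled and 5.55 to 5.62 on SNU449-labelled arrays. Centring thus raises PLC values relative to those of the other lines. Which scaling is nearer to the RNA levels was not tested.

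The synthesis minus oxidation difference moved for Hep3B to 0.055 and 0.13 without the dimmest 30% and 50% and 0.074 with the mean of probe sets, and 0.010 to 0.057 when arrays were left out. For SNU449 it was -0.060 on deposited or centred values, -0.038 with the mean of probe sets, and -0.12 to -0.050 when arrays were left out. For PLC it was 0.0055 without the dimmest genes, 0.054 with the mean of probe sets and 0.019 with the covariate, and -0.035 to 0.0080 when arrays were left out, so its sign changed.

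Replicate numbers are shared between groups, but the deviations of same-numbered arrays had correlations of -0.12 to 0.095, so the numbers were not taken to pair the arrays, and the replicate block gave 6, 2 and 2 members called in Hep3B, SNU449 and PLC.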
